A study of Rattus norvegicus with 12 samples.

Results

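The 7 genes described here encode the working parts of the cardiac thin filament (Tnnt2, Tnni3, Tnnc1, Tpm1 and Actc1), the muscle intermediate filament protein desmin (Des) and the oxygen-binding protein myoglobin (Mb). They were chosen by their rat Ensembl gene IDs, 7 of the 19955 genes listed, and that rule uses no value measured in these hearts, although the set was drawn up with earlier results of these data known. The IDs are ENSRNOG00000033734 for Tnnt2, ENSRNOG00000018250 for Tnni3, ENSRNOG00000018943 for Tnnc1, ENSRNOG00000018184 for Tpm1, ENSRNOG00000008536 for Actc1, ENSRNOG00000019810 for Des and ENSRNOG00000004583 for Mb. All 7 passed the filter on low signal.

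RNA was sequenced from hearts of Sprague Dawley rats labelled wild type, in 3 groups. The sham rats had surgery without an infarct. In the MI rats a myocardial infarction was made by operation, and in the Patch rats a cardiac patch was sutured to the edge of the infarct. The labels give neither the age and sex of the rats, the time after surgery, the material of the patch, nor where in the heart the tissue was taken relative to the infarct. They list 4 samples in each group. Of the columns of the expression table, 4 carry MI names (MI1, MI2, MI162, MI165), 4 carry Patch names (P695, P697, P699, P985) and 2 carry sham names (sham1, sham2). The 2 columns headed ctrl1 and ctrl2 have names that fit no sample label, and they were not used here. Whether they hold the remaining 2 sham samples is not known, so every value of sham below, and every comparison with sham, rests on n = 2.

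In a cardiomyocyte the thin filament is a strand of cardiac α-actin (Actc1) along which lie tropomyosin (Tpm1) and the troponin complex. Calcium binds troponin C (Tnnc1), this releases the hold of the inhibitory subunit troponin I (Tnni3), and troponin T (Tnnt2) passes the shift on to tropomyosin, so that myosin can bind and the heart contracts. Desmin ties neighbouring myofibrils to each other and to the cell membrane and nucleus, and myoglobin stores oxygen in the cytosol and carries it toward mitochondria. Tnnt2 and Tnni3 are made mainly by cardiomyocytes, whereas Tnnc1 is also used by slow skeletal muscle and Tpm1 and Des are also transcribed in smooth muscle, so in whole tissue their reads need not come from cardiomyocytes alone.

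Because the 7 genes are transcribed together in cardiomyocytes, the sequence upstream of their annotated starts is shown for those that hold a motif marked below in capitals. Sequences are from RefSeq on build GRCr8, whereas rn6 is the only build named in the submitters' processing notes, so positions apply to GRCr8 alone. Of the 7 genes, 6 (not Tnnc1) had an entry, Tnnt2 with a pair of starts, which gave 7 windows, each of the 250 bases before a start. Capitals mark 3 kinds of match on either strand. The M-CAT element, to which TEAD factors bind in muscle genes, was searched as CATTCC. The GATA site, to which zinc-finger factors such as Gata4 bind in the heart, was searched as AGATAA. The TATA box, at which the general transcription machinery assembles, was searched as TATAAA.
Tnnt2, chr13:49818873-49819122 (+ strand), the 250 bases before the first start: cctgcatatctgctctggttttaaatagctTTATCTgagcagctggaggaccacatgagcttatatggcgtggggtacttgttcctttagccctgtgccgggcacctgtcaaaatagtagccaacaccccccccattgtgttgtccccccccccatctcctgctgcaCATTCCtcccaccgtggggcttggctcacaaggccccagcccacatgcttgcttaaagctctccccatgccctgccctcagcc
Tnni3, chr1:78342441-78342570 (+ strand), the 130 bases before the start: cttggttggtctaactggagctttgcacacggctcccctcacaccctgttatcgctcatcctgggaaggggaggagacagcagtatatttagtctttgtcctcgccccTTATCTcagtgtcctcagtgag
Tpm1, chr8:76543416-76543545 (- strand), the 130 bases before the start: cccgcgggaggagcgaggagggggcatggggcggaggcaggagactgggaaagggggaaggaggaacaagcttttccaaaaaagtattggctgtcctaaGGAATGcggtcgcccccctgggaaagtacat
Mb, chr7:110647743-110647872 (- strand), the 130 bases before the start: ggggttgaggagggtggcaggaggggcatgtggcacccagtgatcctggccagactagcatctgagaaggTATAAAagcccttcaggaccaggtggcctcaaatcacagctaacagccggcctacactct

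The motifs were chosen after these sequences had been seen. M-CAT was found before Tnnt2 (positions −83 to −78, counted back from the start) and Tpm1 (−31 to −26), and in 12.1% of the 33469 windows of the same length over all genes. The GATA site was found before Tnnt2 (−220 to −215) and Tnni3 (−22 to −17), and in 10.3% of all windows. The TATA box was found before Mb (−60 to −55), and in 12.9% of all windows. The E-box (CANNTG), left in lower case because it is common (65.5% of all windows), was found before Tnnt2 at both starts, Tpm1, Des and Mb. Exact matches to a strict consensus of the CArG box of serum response factor and of the MEF2 box were found in none of the 7 windows, and in 1.5% and 2.96% of all windows. Near matches were not searched, so this does not show that the windows lack such sites. No match overlapped another, and a match describes letters only.

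**Figure D1:**
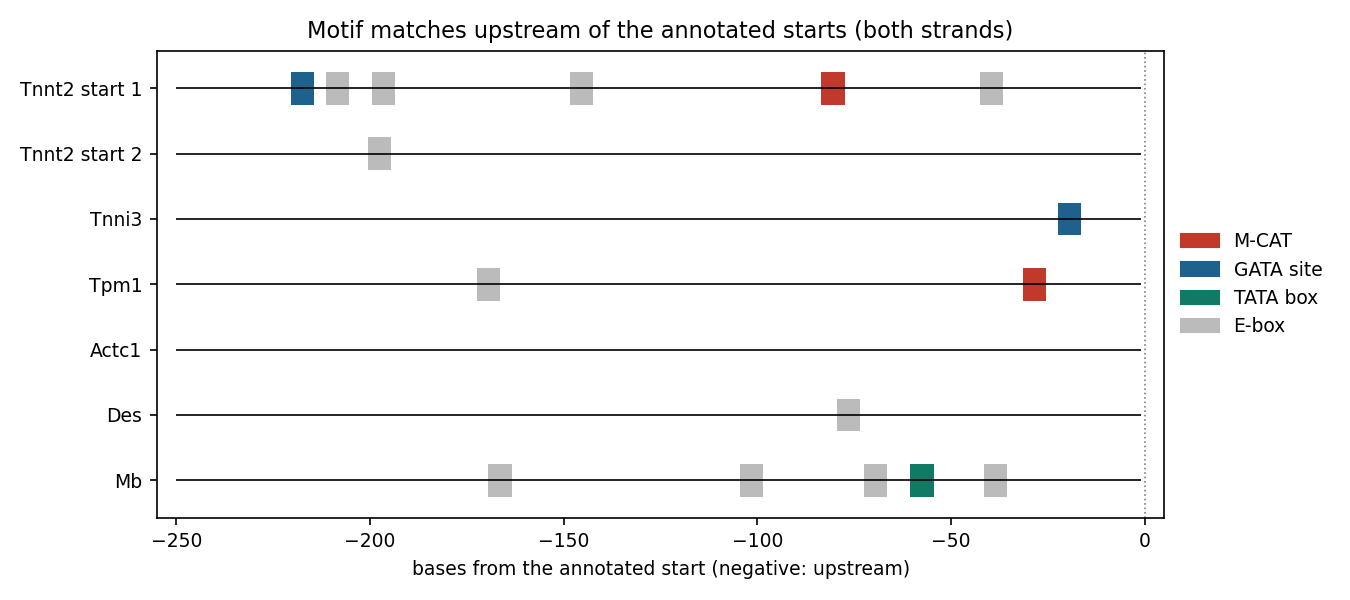
Matches of 4 motifs in the 250 bases before each annotated start, drawn to scale as distance from the start in bases, 1 line per window. Coloured boxes are matches on either strand. M-CAT lies before Tnnt2 and Tpm1, the GATA site before Tnnt2 and Tnni3 and the TATA box before Mb, and Actc1 has none of the 4.

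The libraries held 11420710 to 14110864 reads. The values are a normalized signal, the reads of a gene divided by 1 scaling factor per library, and the least-read value of the 7 genes, that of Tnnc1 in MI162, rested on 14590 reads. MI2 stands apart: it had 5474 genes at 0, against 2400 to 3335 in the other 9 libraries, and 169 genes with exactly 1 read, against 632 to 979. Results that rest on MI2 are therefore given with and without it. The preset lists of other sarcomere genes and of cell type markers could not be read, because the table pairs no IDs with symbols. The tissue label was checked by the cardiac troponins Tnnt2 and Tnni3 alone, which were high in every library. Both are among the 7 genes, so the check is not independent of the results below. In bulk tissue, fewer cardiomyocytes and less RNA per cardiomyocyte cannot be told apart, and this holds for every difference in signal or share below. The cause of differences in ratios between the genes was not tested.

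The 7 genes held a smaller share of all reads in every MI library than in any sham or Patch library. They took 5.74 and 5.72% of all reads in sham1 and sham2, 1.93, 3.92, 1.99 and 3.34% in MI1, MI2, MI162 and MI165, and 5.62, 5.12, 4.18 and 5.10% in P695, P697, P699 and P985. No MI library reached a Patch library, and no Patch library reached a sham library. The share was 5.73 ± 0.0163% (SD, n = 2) in sham, 2.79 ± 0.993% (SD, n = 4) in MI, 2.42 ± 0.795% without MI2 (SD, n = 3), and 5.01 ± 0.604% (SD, n = 4) in Patch. Exact (Clopper-Pearson) 95% intervals on single shares were at most 0.0130 percentage points to either side, and cover counting error only. The sum was not tested, since it is a score over chosen genes.

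Myoglobin took the most reads of the 7 genes in the sham and Patch hearts. Its share was 1.53 and 1.45% in sham1 and sham2, 1.26 to 1.73% in Patch, and 0.371, 0.518, 0.666 and 1.13% in MI162, MI1, MI165 and MI2. Over all genes of the table, Mb ranked 1 by reads in both sham and all 4 Patch libraries, and between 2 and 12 in MI. These are ranks by reads and not by transcripts, since transcript lengths were not used here. Cardiac α-actin came next among the 7 in sham, with 1.20 and 1.21%, and Des had the smallest share, 0.207 and 0.249%.

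**Figure D2:**
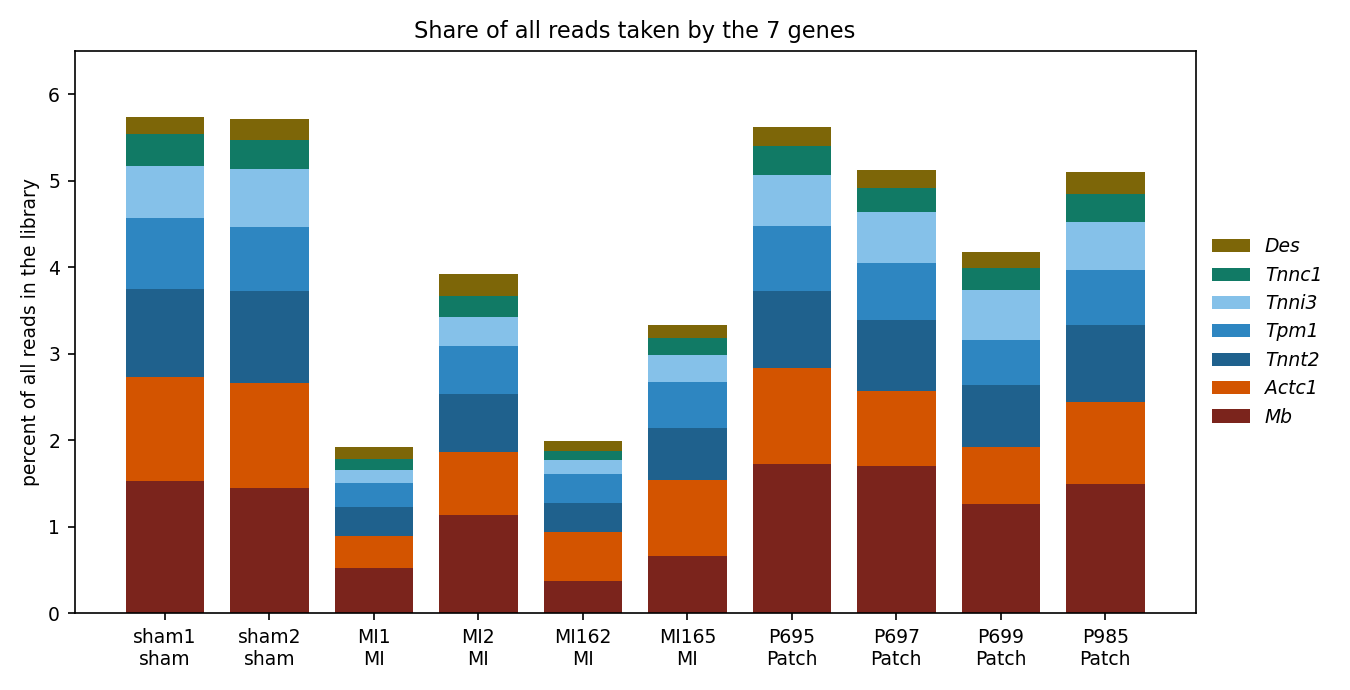
Percent of all reads taken by each of the 7 genes, stacked, 1 bar per library with its group below. The bars of sham reach 5.72 to 5.74%, those of Patch 4.18 to 5.62% and those of MI 1.93 to 3.92%.

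MI was compared with sham to see which of these transcripts differ in the infarcted heart. Tnni3 and Tnnc1, the inhibitory and the calcium-binding subunit of troponin, fell: Tnni3 by 3.36-fold and Tnnc1 by 2.56-fold. The other 5 genes had lower means in MI but did not pass the threshold, a Benjamini-Hochberg adjusted p under 0.05 in limma over the 17091 genes tested. Of the 7 genes 2 were thus called lower, where 8.12% of all tested genes were. The median log2 difference of the 7 was −1.36, and that of all tested genes 0.012. In 6 of the 7 genes, Des excepted, every MI library lay below both sham libraries, as it did in 18.6% of all tested genes. Without MI2 this held for all 7, against 24.5% of all tested genes.

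The troponin subunits come first. The signal of Tnni3, the cardiac form of troponin I, was 81804 and 90529 in sham1 and sham2, 16364, 40524, 18496 and 34901 in MI1, MI2, MI162 and MI165, and 79044, 75416, 71768 and 71521 in P695, P697, P699 and P985. The groups did not overlap: MI1 and MI162 were lowest, MI2 highest within MI, and the Patch libraries lay close together just below sham. Mean signal was 86166 ± 6169 (SD, n = 2) in sham and 27572 ± 11964 (SD, n = 4) in MI. In limma this was a difference of −1.75 on the log2 scale (SE 0.480, adjusted p 0.0330). Without MI2 the difference was −1.97 (adjusted p 0.00443). The call was lost without MI162 (adjusted p 0.0777), sham1 (0.166), sham2 (0.198), P695 (0.0523), P697 (0.0542) or P985 (0.0582); Patch libraries enter through the shared spread.

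The calcium sensor Tnnc1 had a signal of 49177 and 44137 in sham1 and sham2, 14424, 29381, 12114 and 21286 in MI1, MI2, MI162 and MI165, and 45304, 35443, 31532 and 42347 in P695, P697, P699 and P985. Again every MI library was below both sham libraries, but P695 lay above sham2. Its log2 difference between MI and sham was −1.36 (SE 0.403, limma adjusted p 0.0440), and −1.59 without MI2 (adjusted p 0.00476). This call was close to the threshold: the adjusted p was 0.0572 to 0.232 when any one library other than MI2 was left out (sham1 0.232, sham2 0.191, MI1 0.0675, MI162 0.0959, MI165 0.0616, P695 0.0630, P697 0.0686, P699 0.0572, P985 0.0714).

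Troponin T (Tnnt2), which anchors the complex to tropomyosin, had a signal of 137262 and 143149 in sham1 and sham2, 37516, 81080, 37002 and 66673 in MI1, MI2, MI162 and MI165, and 120613, 104964, 89628 and 115028 in P695, P697, P699 and P985. All 3 groups were separate, with sham highest, Patch between and MI lowest. MI1 and MI162 were nearly equal, and MI2, the highest of MI, lay below P699, the lowest of Patch. The log2 difference between MI and sham was −1.42 (SE 0.572, limma adjusted p 0.116), which did not pass, and −1.63 without MI2 (adjusted p 0.0187), which did.

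Tropomyosin (Tpm1), which covers the myosin-binding sites of actin at rest, had a signal of 112188 and 99196 in sham1 and sham2, 31570, 67007, 37443 and 60087 in MI1, MI2, MI162 and MI165, and 102467, 84026, 65995 and 81172 in P695, P697, P699 and P985. MI lay below sham throughout, but P699 lay just under MI2, and P695 lay above sham2. Between MI and sham the log2 difference was −1.18 (SE 0.522, limma adjusted p 0.152), and −1.35 without MI2 (adjusted p 0.0346). Cardiac α-actin (Actc1), the backbone of the filament, had a signal of 162459 and 162857 in sham1 and sham2, 41402, 86976, 64447 and 98295 in MI1, MI2, MI162 and MI165, and 149855, 110984, 82380 and 121561 in P695, P697, P699 and P985. Here the sham libraries were almost equal, and MI165, not MI2, was the highest of MI and lay above P699. Its log2 difference between MI and sham was −1.23 (SE 0.625, limma adjusted p 0.206). It was the only one of the 7 that did not pass without MI2 either (−1.35, adjusted p 0.0743). Actins and tropomyosins have near-identical relatives, and how the counting treated reads shared between them is not given in the sources used here, so the values of Actc1 and Tpm1 are uncertain to that extent.

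Desmin, the link between myofibrils, had a signal of 28065 and 33466 in sham1 and sham2, 15577, 29846, 13178 and 17856 in MI1, MI2, MI162 and MI165, and 31090, 25757, 23768 and 32852 in P695, P697, P699 and P985. MI2 exceeded sham1 and 2 of the Patch libraries, whereas the other 3 MI libraries lay below every sham and Patch library. The log2 difference between MI and sham was −0.75 (SE 0.364, limma adjusted p 0.187), the smallest of the 7, and −0.99 without MI2 (adjusted p 0.0182). Myoglobin had a signal of 207853 and 194517 in sham1 and sham2, 57772, 136257, 41873 and 74574 in MI1, MI2, MI162 and MI165, and 233884, 216197, 157661 and 191517 in P695, P697, P699 and P985. The MI values spanned 3.25-fold from MI162 to MI2, the widest range among the 7 genes within a group. Its log2 difference between MI and sham was −1.51 (SE 0.725, limma adjusted p 0.183), and −1.83 without MI2 (adjusted p 0.0215).

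**Figure D3:**
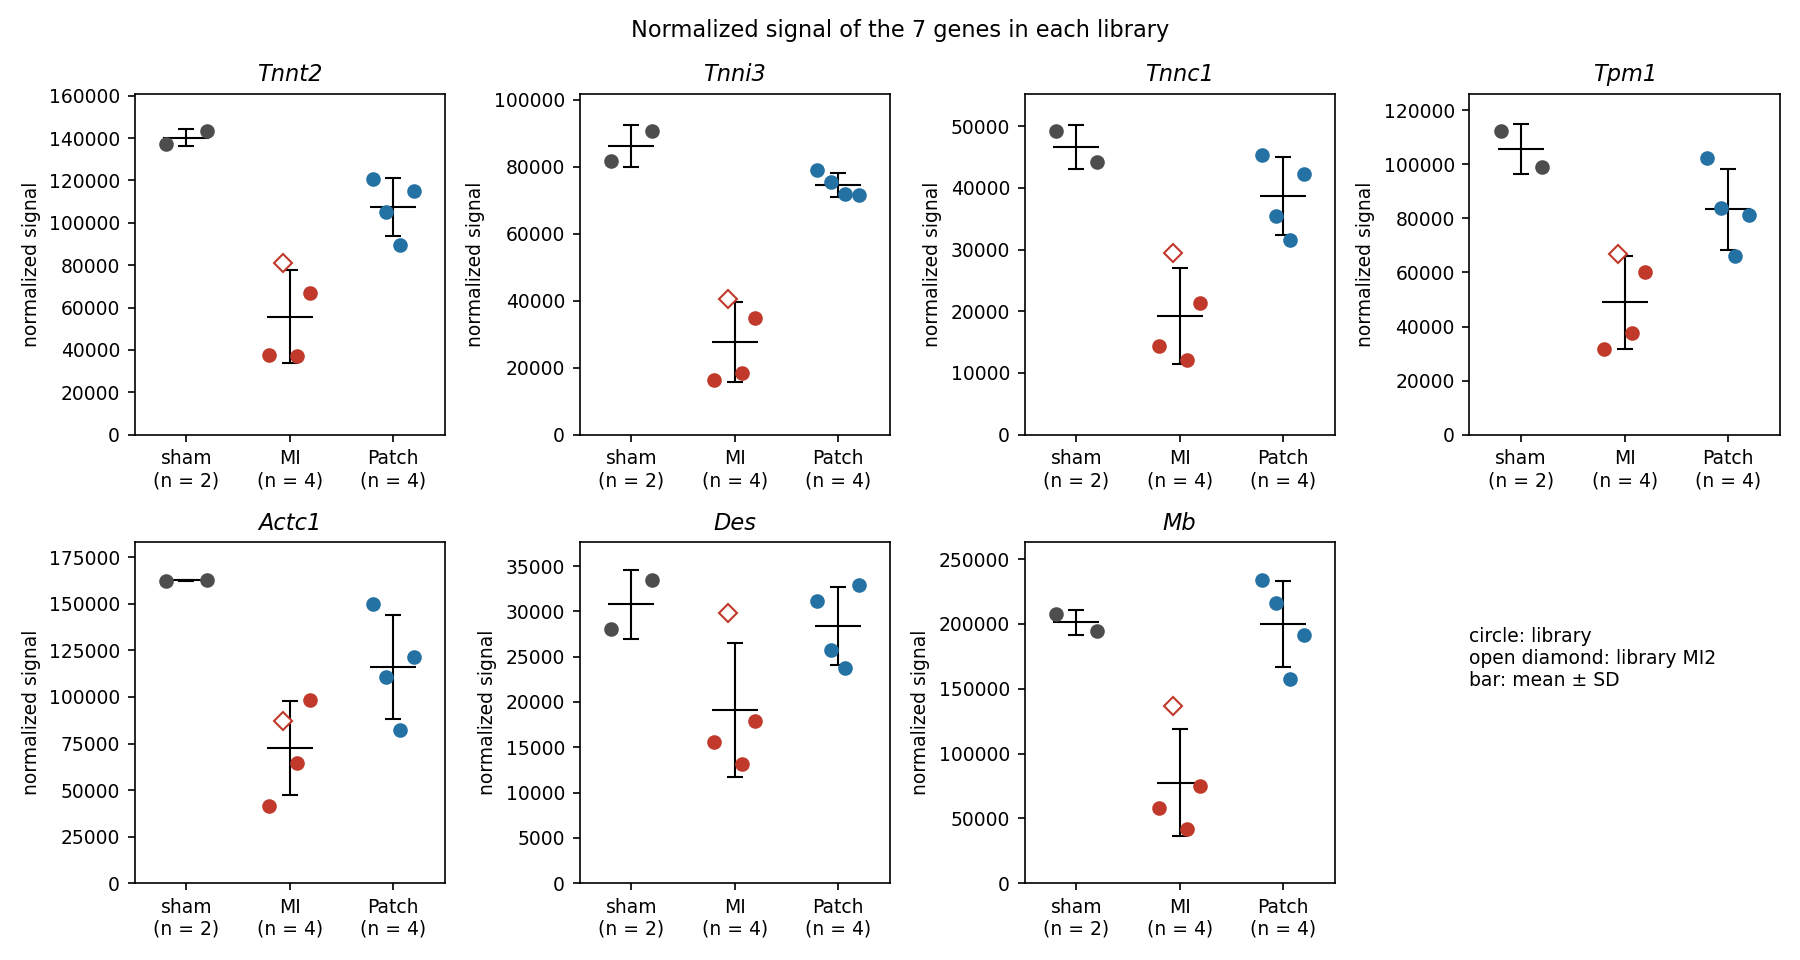
Normalized signal of each gene (linear axis from 0) in the 2 sham, 4 MI and 4 Patch libraries, with mean ± SD. Circles are libraries and the open diamond is MI2, which is the highest MI library in 6 of the 7 genes. P699 is the lowest Patch library in 6 of 7.

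Leaving out MI2 took the count of genes called lower from 2 to 6 of 7, all but Actc1, where 14.5% of all tested genes were called lower. Without MI2 both edgeR and DESeq2 called all 7 lower, and 13.5% and 16% of all tested genes. With all libraries, a count model on recovered reads gave 3 of 7 in edgeR (Tnnt2, Tnni3 and Tnnc1), where 6.8% of all genes were called lower, and 6 of 7 in DESeq2 (all but Des), where 11.1% were. Quantile scaling, which forces the same distribution of values on every library, gave 0 of 7 (6.98% of all genes) and log2 differences of −0.51 for Actc1, −0.39 for Tpm1 and −0.72 for Tnnt2. It moved the median log2 difference of the 7 from −1.36 to −0.72. A fit on the MI and sham libraries alone also gave 0 of 7 (0.949%), as did a fit with no filter on low signal (6.38%), and scaling to total reads gave 1, Tnni3 (4.71%). A mean signal of 10 as the filter gave 2, Tnni3 and Tnnc1 (10.9%), weights on the libraries gave 6, all but Actc1 (16.8%), and total-read scaling without MI2 gave 5, all but Tpm1 and Actc1 (9.52%).

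Patch was compared with MI to see which of these transcripts differ between infarcted hearts with and without the patch. Tnni3 rose by 2.91-fold and was the 1 gene of the 7 called, where 7.72% of all tested genes were called higher. The other 6 genes had higher means in Patch and did not pass in limma. The median log2 difference of the 7 was 1.03, and that of all tested genes 0.0023. In Tnnt2, Tnni3, Tnnc1 and Mb every Patch library lay above every MI library, as it did in 9.81% of all tested genes. Without MI2 this held for 6 genes, Actc1 excepted, and for 17.5% of all tested genes.

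For Tnni3 the mean signal was 74437 ± 3550 (SD, n = 4) in Patch, and the log2 difference from MI was 1.54 (SE 0.392, limma adjusted p 0.0304). It was 1.76 without MI2 (adjusted p 0.00351). The call was lost without MI1 (adjusted p 0.0535), MI162 (0.0905), P695 (0.0968), P697 (0.0795), P985 (0.0855), sham1 (0.0509) or sham2 (0.0505). Tnnc1 narrowly missed the threshold, at 1.07 (SE 0.329, limma adjusted p 0.0536). Mb, with a mean signal of 199815 ± 33040 (SD, n = 4) in Patch and 77619 ± 41309 (SD, n = 4) in MI, differed by 1.49 (SE 0.592, limma adjusted p 0.114). The differences for Tnnt2, Tpm1, Actc1 and Des were 1.03, 0.82, 0.72 and 0.63, with adjusted p between 0.162 and 0.372.

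Without MI2, 5 of the 7 genes were called higher in Patch: Tnnt2 (1.24, limma adjusted p 0.0291), Tnni3, Tnnc1 (1.30, 0.00568), Des (0.87, 0.0157) and Mb (1.81, 0.0110). In that fit 14.5% of all tested genes were called higher. Tpm1 (0.99, 0.0573) and Actc1 (0.83, 0.176) did not pass. On recovered reads from all libraries, edgeR called 3 of the 7 (Tnni3, Tnnc1 and Mb), where 5.28% of all genes were called higher, and DESeq2 called 5 (all but Actc1 and Des), where 10.7% were. Without MI2 edgeR called 6 (all but Actc1; 13.3% of all genes) and DESeq2 all 7 (15.9%). With quantile scaling 0 of the 7 were called (7.21%), and the difference of Actc1 was 0.058. The median of the 7 was then 0.58, against 1.03 as deposited. The fit on Patch and MI alone called 1, Tnni3 (4.71%), as did the fit with no filter on low signal (5.66%) and scaling to total reads (4.68%). A mean signal of 10 as the filter called 2, Tnni3 and Tnnc1 (10.2%). Weights on the libraries (16.2%) and total-read scaling without MI2 (10.2%) each called 5, all but Tpm1 and Actc1.

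**Figure D4:**
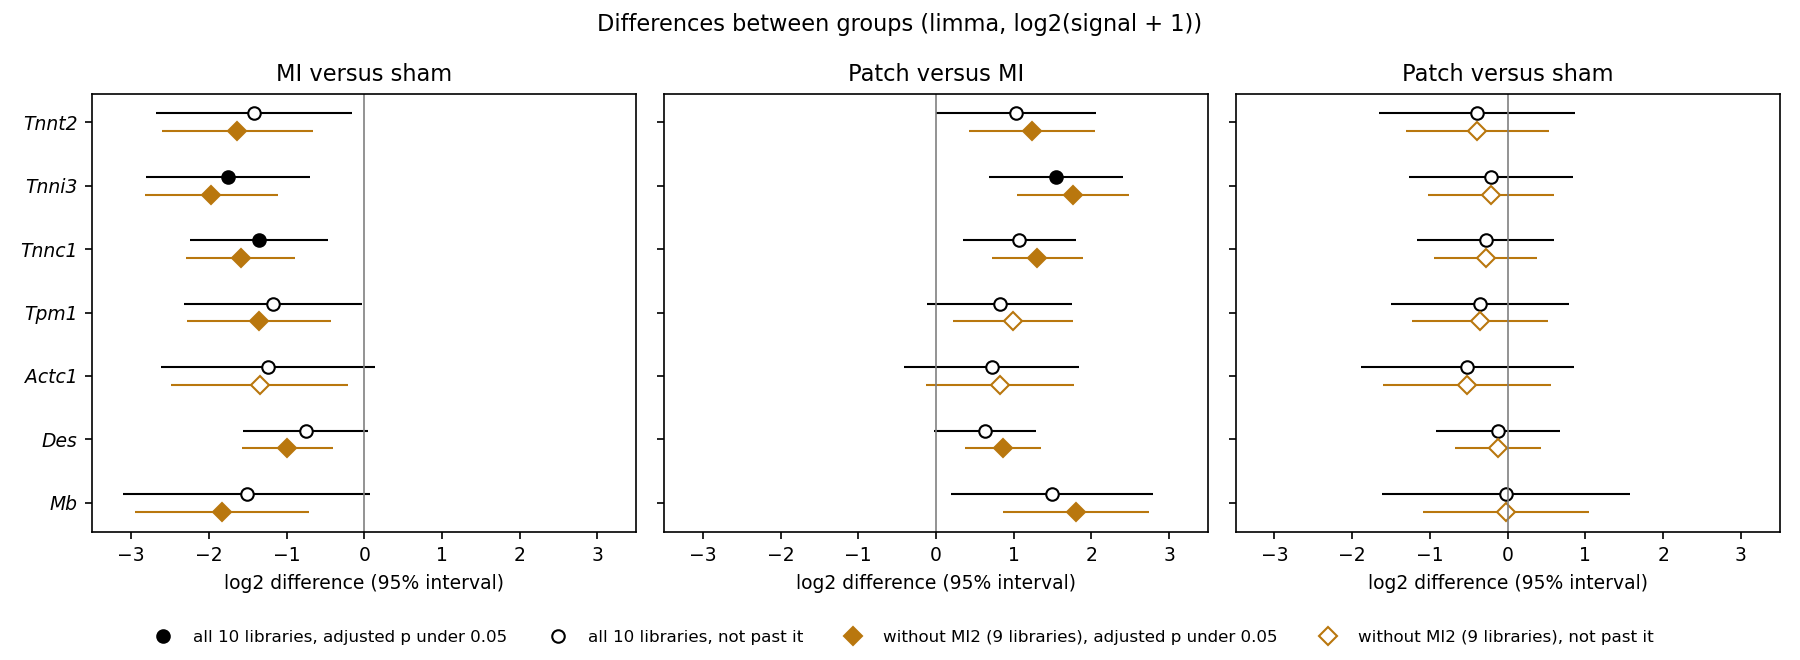
Log2 differences of the 7 genes with 95% intervals from limma, in 3 comparisons. Black circles are the fit on all 10 libraries and brown diamonds the fit without MI2, and filled symbols passed an adjusted p of 0.05. In MI versus sham every difference is below 0, in Patch versus MI every one is above 0, and in Patch versus sham each interval includes 0.

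Patch was compared with sham to see which transcripts differ between patched hearts and hearts that had surgery without an infarct. None of the 7 genes passed in limma (0 of 7, and 0 at an unadjusted p under 0.05), and 0% of all tested genes did. Over all genes, 524 had an unadjusted p under 0.05, and at the adjusted threshold edgeR called 0 and DESeq2 15 (0.0234% of genes lower and 0.0644% higher), none of them among the 7. Without MI2, DESeq2 called 26 (0.0526% lower, 0.0994% higher), and weights on the libraries gave 10 (0.0117% lower, 0.0468% higher), again none of the 7. The log2 differences ran from −0.52 for Actc1 (95% interval −1.89 to 0.86) to −0.02 for Mb (−1.62 to 1.57). Those of Tnnt2, Tpm1, Tnnc1, Tnni3 and Des were −0.39, −0.36, −0.28, −0.21 and −0.12. These intervals are wide, so the comparison does not show that Patch and sham were alike. The MI libraries enter them through the shared spread. In a limma fit on Patch and sham alone they were narrower, −1.35 to 0.31 for Actc1 and −0.95 to 0.90 for Mb. That fit called 0 of the 7 and 0% of all tested genes, and 1449 genes had an unadjusted p under 0.05. In 3 of the 7 genes, Tnnt2, Tnni3 and Actc1, all 4 Patch libraries lay below both sham libraries, as they did in 9.37% of all tested genes. For Actc1 the mean signal was 116195 ± 27883 (SD, n = 4) in Patch and 162658 ± 282 (SD, n = 2) in sham, and for Mb it was 199815 ± 33040 (SD, n = 4) and 201185 ± 9430 (SD, n = 2). The comparisons of Patch with MI and of MI with sham share the MI libraries, and those with sham share the sham libraries, so the 3 sets of differences are not independent.

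The sizes of the differences were not the same in all 7 genes, which was examined with ratios within a library, in which a single scaling factor per library cancels. Quantile scaling is not a single factor and does not cancel, so all 6 ratios are given with its values too. Each gene was divided by Tnnt2. The level of such a ratio depends on transcript length, so only its differences between groups are read. The ratio of Tnni3 to Tnnt2 was 0.596 and 0.632 in sham1 and sham2, 0.436, 0.4998, 0.4999 and 0.523 in MI1, MI2, MI162 and MI165, and 0.655, 0.718, 0.801 and 0.622 in P695, P697, P699 and P985. It was lower in every MI library than in any sham or Patch library, so that in these libraries the difference in Tnni3 was larger than that in Tnnt2. The mean log2 ratio differed by −0.33 between MI and sham and by 0.51 between Patch and MI. Of all tested genes divided by Tnnt2, 0.38% were lower in MI than in sham without overlap, and 0.386% were higher in Patch than in MI without overlap (0.807% and 0.907% when MI2 is left out). Tnnt2 itself had a lower mean in MI, so a gene had to differ by more than Tnnt2 to be counted, which keeps these shares small. With quantile scaling the differences were −0.44 and 0.49, again without overlap (4.01% and 1.44% of all tested genes). Between Patch and sham the log2 ratio of Tnni3 differed by 0.18, and by 0.05 with quantile scaling. The two-sided exact permutation test gave p = 0.0286 for Patch against MI, the smallest it can give, and 0.257 after adjustment over 18 tests, and did not pass. With sham, no p under 0.133 is possible.

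Relative to Tnnt2, desmin was higher in MI and Patch than in sham. The ratio of Des to Tnnt2 was 0.204 and 0.234 in sham1 and sham2, 0.415, 0.368, 0.356 and 0.268 in MI1, MI2, MI162 and MI165, and 0.258, 0.245, 0.265 and 0.286 in P695, P697, P699 and P985. Both MI and Patch lay above sham without overlap, as 66.3% and 45.2% of all tested genes did (80.9% in MI without MI2), so it is not particular to desmin. The log2 ratio differed by 0.67 between MI and sham, by 0.27 between Patch and sham and by −0.40 between Patch and MI (two-sided exact permutation p = 0.0571, adjusted 0.257, in the last). With quantile scaling these were 0.29, 0.03 and −0.25, and Des overlapped between all groups.

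For myoglobin the ratio to Tnnt2 was 1.51 and 1.36 in sham1 and sham2, 1.54, 1.68, 1.13 and 1.12 in MI1, MI2, MI162 and MI165, and 1.94, 2.06, 1.76 and 1.66 in P695, P697, P699 and P985. The MI ratios formed a low pair (MI162, MI165) and a higher pair (MI1, MI2), and P985 lay just under MI2. Between Patch and MI the log2 ratio differed by 0.46 (two-sided exact permutation p = 0.0571, adjusted 0.257). Between Patch and sham it differed by 0.37, with every Patch library above both sham libraries, as in 45.2% of all tested genes. Without MI2 the Mb ratio, like that of Tnni3, was higher in every Patch library than in any MI library, where 0.907% of all tested genes were. With quantile scaling the log2 ratio of Mb differed by 0.52 between Patch and MI, without overlap (1.44% of all tested genes), by 0.13 between Patch and sham and by −0.39 between MI and sham (−0.09 as deposited). Mb had the most reads of all genes in every sham and Patch library, so quantile scaling gave it the same value in each of them. In those libraries the scaled ratio varied through Tnnt2 alone, and the 0.13 is no measure of Mb.

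The ratio of the troponin subunits Tnnc1 and Tnnt2 had the narrowest range of the 6 in the deposited signal. Tnnc1 over Tnnt2 lay between 0.308 (sham2) and 0.384 (MI1) in all 10 libraries, and its log2 differences were 0.06 between MI and sham, 0.04 between Patch and MI and 0.11 between Patch and sham. With quantile scaling they were −0.31, 0.16 and −0.15, so the direction against sham was the opposite, and MI lay below sham without overlap (4.01% of all tested genes). Tpm1 over Tnnt2 was higher in every MI library (0.826 to 1.01) than in sham (0.693 and 0.817), as 66.3% of all tested genes over Tnnt2 were, so it is not particular to Tpm1. The Patch ratios of Tpm1 (0.706 to 0.850) overlapped those of both. Its log2 differences were 0.25 between MI and sham, −0.21 between Patch and MI and 0.03 between Patch and sham. With quantile scaling they were 0.33, without overlap (38.9% of all tested genes), −0.25 and 0.08. Actc1 over Tnnt2 spread widely within MI, from 1.07 in MI2 and 1.10 in MI1 to 1.47 in MI165 and 1.74 in MI162, around the sham values of 1.14 and 1.18. Its log2 ratio differed by 0.19 between MI and sham, by −0.31 between Patch and MI and by −0.13 between Patch and sham, with overlap in each. With quantile scaling it differed by 0.21, −0.53 and −0.32, and Patch lay below MI (21.6% of all tested genes) and below sham (3.93%) without overlap. Between Patch and MI that gave a two-sided exact permutation p of 0.0286 (0.171 adjusted over 18 tests), as it did for Tnni3 and Mb. No ratio passed after adjustment, with adjusted exact permutation p of 0.257 to 0.800, and 0.171 to 0.933 with quantile scaling.

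**Figure D5:**
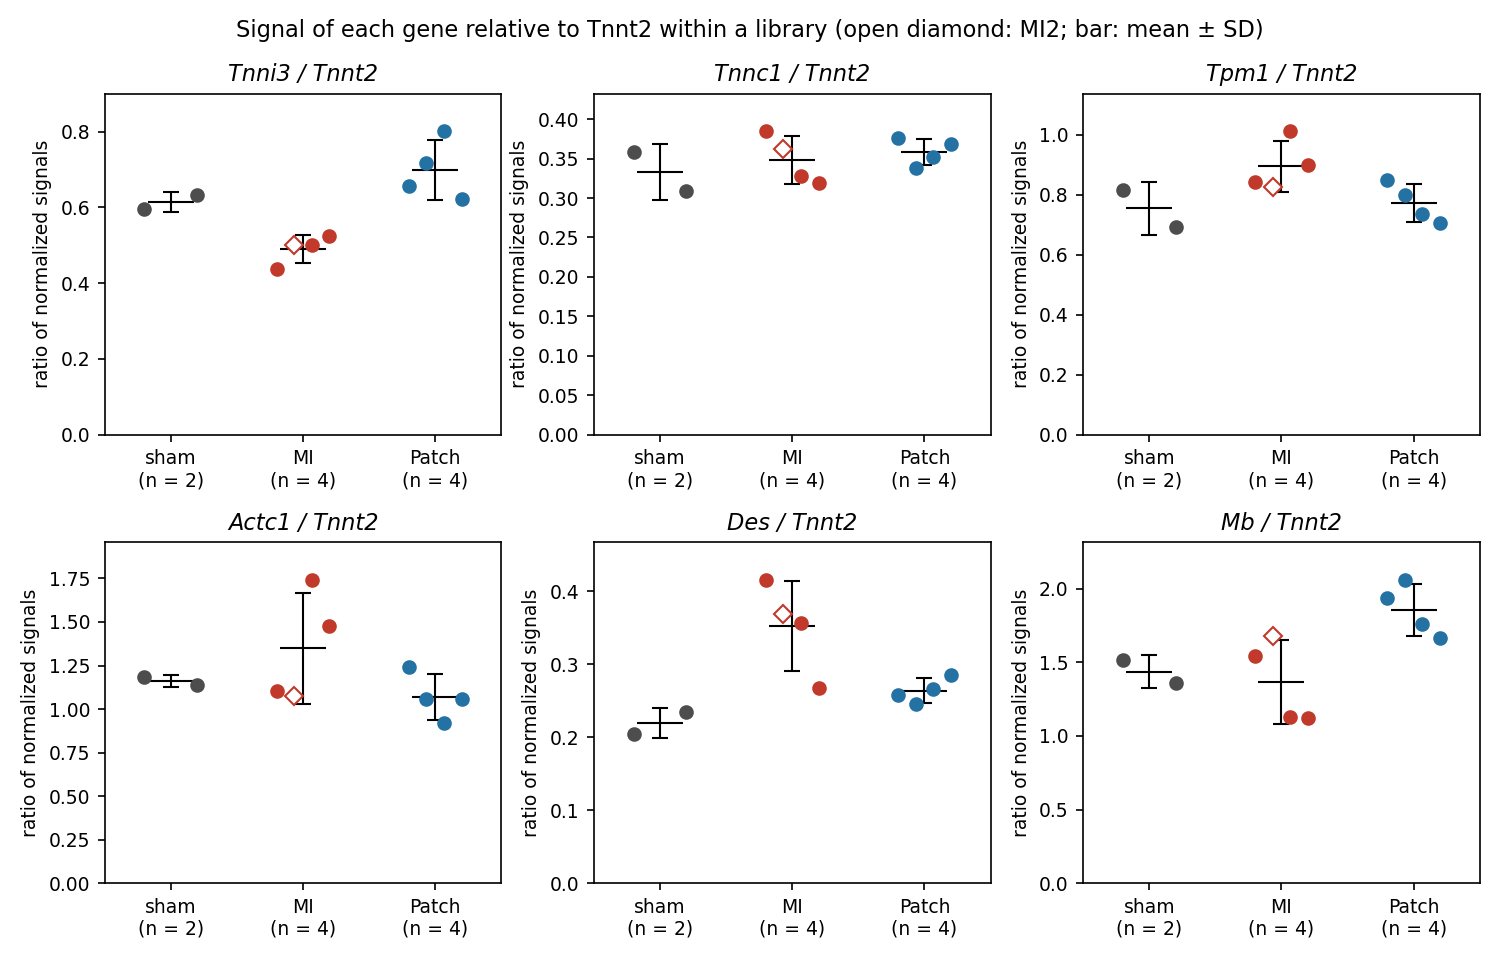
Signal of 6 genes divided by that of Tnnt2 in the same library (linear axes from 0), with mean ± SD for 2 sham, 4 MI and 4 Patch libraries. For Tnni3 the MI libraries (0.436 to 0.523) lie below all others (0.596 to 0.801). Open diamonds mark MI2.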

How the data were processed

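Polyadenylated RNA from TRIZOL extracts of heart was made into cDNA libraries with random hexamer priming, per the labels' protocols, which name no molecular identifiers. The authors deposited a normalized signal per gene. HISAT2, SAMtools, featureCounts and DESeq2 and the build rn6 are named in the submitters' processing notes, with no versions or settings, and strand use and annotation are not given in the sources used here. Dividing the deposited signal by 1 step per library gave whole reads for 100% of values (tolerance 0.01 read) in the 10 libraries used. The 2 remaining columns of per-sample values were not used. Columns were put in groups by name, and their numbers were not taken as replicate numbers. The labels do not say which samples come from separate rats, so p-values measure the spread between these samples.

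The 17091 of 19955 genes whose mean signal reached 1 were tested on log2(signal + 1) with limma 3.58.1 in R 4.3.3 (eBayes with trend, 3 groups in 1 fit, Benjamini-Hochberg over all genes). The planned fit had 12 libraries and used 10. Count models on recovered reads, edgeR 4.0.16 (quasi-likelihood) and DESeq2 1.42.0, and other scalings, filters, pseudocounts, sample weights and left-out libraries were alternatives. Ratios were tested with exact permutation tests in scipy 1.17.1 (Python 3.11.15). The fits were tested on simulated data. The members, whose rule is a list of gene IDs, and the lists and tests were chosen with earlier results of these data known. Named genes were to be the 7 members, genes of preset lists and the genes most like the members. No ID of the table matched the gene table used here (0 of 19955), so the lists, the ratios to Tnni1 and Acta1 and checks of marker genes were not run, and at most 2 other genes are given, by ID.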

Additional observations from a re-analysis of the deposited data

How the results depend on the processing

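In the 23 alternatives run for each comparison, no difference of the 7 genes changed direction in MI versus sham or in Patch versus MI; these alternatives share most libraries. Fits without MI2 in edgeR, in DESeq2 and with total-read scaling were chosen after seeing the data. For MI versus sham, the 2636 genes called (2 of the 7) became 599 (0) with only the 2 groups compared, 5679 (6) when libraries were weighted, 4687 (7) in edgeR and 5608 (7) in DESeq2 when MI2 was left out and 5780 (5) with total-read scaling without MI2. The count of the 7 was 6 in DESeq2, 1 with total-read scaling, and 0 with quantile scaling and with no filter. Leaving out 1 library gave 7 (without sham1) to 4979 (without MI2) genes, with 24 without sham2 and 1448 without MI162, and 0 to 6 of the 7. With 1 sham library left, its spread is assumed to be that of the other groups.

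For Patch versus MI, 2251 genes (1 of the 7) became 3679 (5) in DESeq2, 5383 (5) when libraries were weighted, 4643 (6) and 5436 (7) in edgeR and DESeq2 when MI2 was left out, 5688 (5) with total-read scaling without MI2 and 1437 (1) with only the 2 groups compared. The count of the 7 was 3 in edgeR, 2 with a mean signal of at least 10 and 0 with quantile scaling. Leaving out 1 library gave 209 (without P695) to 4821 (without MI2) genes and 0 to 5 of the 7; the genes were 292 without P985, 611 without P697, 649 without MI162, and 1446 and 1440 without sham1 and sham2. For Patch versus sham, 0 genes became 10 with sample weights, 15 in DESeq2, 26 in DESeq2 without MI2 and 0 to 2 without 1 library (2 without P695), none among the 7. The cause was not tested.

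Total-read scaling moved the median log2 difference of all genes to 0.24 between MI and sham and −0.17 between Patch and MI, and the medians of the 7 to −1.11 and 0.85, whereas quantile scaling moved the medians of the 7 further, to −0.72 and 0.58. With total-read scaling, 73.4% of MI-versus-sham calls were higher (47.3% as reported, 73.0% with the 2 groups alone) and 30.2% of Patch-versus-MI calls (58.6%). The share of reads of the 7 differed by −2.94 percentage points between MI and sham, and by −3.83 when the 100 other genes with most reads were left out of the total, which makes every share larger.

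Differences near 0 changed sign in Patch versus sham. That of Des was 0.0028 without sham2 and −0.25 without sham1. That of Mb was 0.00098 in edgeR, 0.00085 in edgeR without MI2, 0.0021 with sample weights, 0 with quantile scaling, 0.039 with total-read scaling with or without MI2, 0.084 without P699, 0.023 without sham1 and −0.11 without P695. The 0 with quantile scaling was fixed in advance. Mb had the most reads in every sham and Patch library, and quantile scaling gives the top gene of each library the same value. Among ratios to Tnnt2, that of Tnnc1 became −0.045 (MI versus sham) and −0.0011 (Patch versus sham) without sham2, and 0.17 and 0.22 without sham1, and that of Tpm1 (Patch versus sham) −0.012 without P695, −0.084 without sham2 and 0.15 without sham1. With quantile scaling of the ratios, also chosen after seeing the data, that of Tnnc1 was −0.31 between MI and sham and −0.15 between Patch and sham. No paired analysis was possible because the column names carry no replicate numbers of the labels that could be matched.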

Other observations

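Within MI and Patch the same libraries were often highest or lowest across the 7 genes, whereas in sham the higher library was sham1 in 3 genes and sham2 in 4. MI2 was the highest MI library in 6 genes (MI165 in Actc1), and the lowest was MI162 in 4 and MI1 in 3. P695 was the highest Patch library in 6 genes (P985 in Des) and P699 the lowest in 6 (P985 in Tnni3). No library of MI or Patch lay far from the other 3 by Dixon's test in the 42 sets of 4 values examined (signal, share and ratio), where chance gives about 2.1. The sets repeat the same genes and libraries and are not independent, and with 4 values only an extreme library can be found. The test therefore does not show that MI2 is like the other MI libraries.

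Over the 10 libraries, the genes whose log2(signal + 1) was most like the mean of the 7 were ENSRNOG00000024309 and ENSRNOG00000018129, for which no name is given here. Likeness was Pearson's correlation over libraries that fall into 3 groups, given as a description, and was 0.998 and 0.996 (Spearman 0.976 in both). Of the 11433 genes whose mean signal reached 50, 651 (5.69%) reached 0.95. The signal of ENSRNOG00000024309 was 9061 ± 21.7 (SD, n = 2) in the sham libraries, 3736 ± 1293 (SD, n = 4) in the MI libraries and 7552 ± 815 (SD, n = 4) in the Patch libraries. That of ENSRNOG00000018129 was 8519 ± 184 (SD, n = 2), 3067 ± 1414 (SD, n = 4) and 6896 ± 1072 (SD, n = 4) in the same order. Among the 7 themselves, each gene's correlation with the mean of the other 6 ran from 0.898 in Actc1 to 0.995 in Tnnt2.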
